A study of Homo sapiens with 12 samples.

Results

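The SLC25 mitochondrial carrier family was followed in human embryonic stem cells (hESCs) with and without UBQLN1. Its members were taken as every gene of the count table whose symbol is SLC25A followed by a number, which gave 48 of 28278 genes. SLC25 proteins are encoded in the nucleus, made in the cytosol and, for the most part, inserted into the mitochondrial inner membrane, where each exchanges a small set of metabolites between the matrix and the cytosol. They move ADP and ATP, phosphate, carboxylic acids, amino acids, iron, glutathione, coenzymes and nucleotides, so that oxidative phosphorylation, the malate-aspartate shuttle and haem synthesis all depend on them. Their insertion uses the TIM22 route of protein import, and mitochondrial membrane proteins that have not yet been imported are among the clients that ubiquilins are known to bind.

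The cells were WA26 hESCs, an established line kept in E8 medium, and UBQLN1 was disrupted with CRISPR-Cas9 and a pair of guides. Bulk RNA-sequencing gave 4 groups of 2 libraries each: wild-type (WT) cells and UBQLN1 knockout (KO) cells, both at 20% O2, KO cells moved to 5% O2, and KO cells given N-acetylcysteine (NAC), a cysteine source and antioxidant for which the labels give no oxygen level and no vehicle. The labels list 12 samples, and the 4 WT libraries at 5% O2 or with NAC were not analysed here, so effects of NAC and of 5% O2 were measured within KO cells only. For RNA-seq at 5% O2 the paper describes a day of culture. Its treatment scheme shows NAC and low oxygen given over many passages before harvest, with DMSO as the control. The labels give no duration, so treatment and time in culture cannot be told apart in comparisons with NAC. The clone behind each library is not named, and the labels do not say that the libraries of a group came from separate cultures, so that p-values measure only the spread between these libraries, which may be technical.

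Library totals ran from 31236968 to 41639350 counts, and both libraries of each group differed by more than sampling noise. UBQLN1 checked the labels: it was at 209 ± 17.3 CPM (SD, n = 2) in WT, 42.8 ± 0.85 in KO, 49.8 ± 2.98 in KO at 5% O2 and 55.8 ± 9.28 in KO with NAC (CPM, counts per 1000000 counts of the library, scaled by TMM). The remaining UBQLN1 counts were called higher with NAC than in untreated KO (log2 fold change 0.38, adjusted p = 0.0196, edgeR's quasi-likelihood test). They were at 62.4 and 49.3 CPM with NAC and 42.2 and 43.4 CPM without. The pluripotency genes LIN28A and POU5F1 were expressed in every group, at 1250 to 1530 and 141 to 171 CPM on average, while of 5 markers of early differentiation SOX17 had no count in any library and the highest, EOMES, ran from 0.207 to 2.77 CPM. The first NAC library stood apart. It had counts for all 8 of 8 fibroblast or mesenchymal markers examined, with DCN at 47.2 CPM, COL3A1 at 29.1 CPM and LUM at 3.86 CPM, whereas DCN and LUM were at 0 in the other 7 libraries and COL3A1 did not exceed 0.207 CPM there. The summed level of the 8 markers was 936 CPM in that library and 511 to 627 CPM in the others. The largest part of each sum was THY1, which ran from 332 to 476 CPM over the 8 libraries, also where DCN and LUM were at 0. The counts of members with NAC against untreated KO are therefore also given without that library. That fit has a single NAC library, so its calls take their spread from the other groups. DNMT3B and NANOG, both pluripotency markers, were called lower with NAC and TDGF1 was called higher; the part of these marker differences in the SLC25 values was not tested.

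The promoters of 4 carriers to which the comparisons below return are shown first, because SLC25A5 and SLC25A4 encode the paired ADP/ATP carriers, SLC25A36 had the largest fold change with NAC when all libraries were used without a trend correction, and SLC25A11 the most GC-rich transcript among the increases. Each line gives 250 bases ending just before the start of the RefSeq transcript (GRCh38.p14), written 5′ to 3′ on the strand of the gene, with matches to ACGTG or GCGTG on either strand in capitals. These are core letters bound by hypoxia-inducible factors and by other basic helix-loop-helix proteins. The windows are chrX:119468194-119468443 on the plus strand for SLC25A5, chr4:185143016-185143265 on the plus strand for SLC25A4, chr3:140941586-140941835 on the plus strand for SLC25A36 and chr17:4940047-4940296 on the minus strand for SLC25A11.
SLC25A5: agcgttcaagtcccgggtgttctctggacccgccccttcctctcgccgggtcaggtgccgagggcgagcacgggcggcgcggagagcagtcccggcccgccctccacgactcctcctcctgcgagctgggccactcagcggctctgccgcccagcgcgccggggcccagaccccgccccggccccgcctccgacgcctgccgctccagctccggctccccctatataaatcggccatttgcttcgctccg
SLC25A4: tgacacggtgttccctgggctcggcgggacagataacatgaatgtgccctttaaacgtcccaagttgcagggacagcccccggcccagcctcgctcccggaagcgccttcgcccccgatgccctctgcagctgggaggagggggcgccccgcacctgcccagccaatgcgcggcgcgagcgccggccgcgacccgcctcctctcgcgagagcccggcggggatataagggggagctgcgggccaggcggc
SLC25A36: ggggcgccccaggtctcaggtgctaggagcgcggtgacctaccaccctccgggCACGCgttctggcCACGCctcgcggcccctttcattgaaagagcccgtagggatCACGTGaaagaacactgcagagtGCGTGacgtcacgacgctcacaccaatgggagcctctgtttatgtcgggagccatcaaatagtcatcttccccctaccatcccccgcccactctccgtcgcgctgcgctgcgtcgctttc
SLC25A11: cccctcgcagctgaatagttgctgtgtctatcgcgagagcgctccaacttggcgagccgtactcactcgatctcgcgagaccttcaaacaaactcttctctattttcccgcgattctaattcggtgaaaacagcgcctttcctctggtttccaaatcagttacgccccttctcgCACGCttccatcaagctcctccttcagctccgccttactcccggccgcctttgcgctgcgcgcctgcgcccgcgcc

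SLC25A5 and SLC25A4 had 0 matches, SLC25A11 had 1 and SLC25A36 had 5, of which an overlapping pair comes from the single palindrome CACGTG. RefSeq windows of 300 bases, from 250 before to 50 after the start, were given for 40 of the 48 members. ACGTG or GCGTG lay in at least 1 window of 34 of these 40 genes (85%), beside 52.4% of all 27305 genes with a window. Split by their result with NAC, described below, 12 of 15 members called higher held the letters, as did 5 of 5 called lower and 12 of 15 not called. The letters were thus common in members of every kind of result. GCATGC, the core of the site of nuclear respiratory factor 1, a regulator of mitochondrial genes, lay in 1 of 40 member genes (2.5%) and in 8.8% of all genes. A match describes these letters only and does not show a bound factor.

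The family took a small, steady share of the counts. Its members held 0.309% and 0.312% of the counts in the WT libraries, 0.287% and 0.292% in KO, 0.292% and 0.293% in KO at 5% O2 and 0.335% and 0.338% in KO with NAC, so that the NAC libraries were the highest of the 8. Most of this came from 4 genes, SLC25A3, SLC25A5, SLC25A39 and SLC25A1, which held 56.7% to 61% of the family's counts. The first is the phosphate carrier, the second the ADP/ATP carrier of dividing cells, the third a glutathione carrier and the fourth the citrate carrier. Between 42 and 45 members had a count in any one library. SLC25A2, SLC25A31 and SLC25A47 were at 0 in all 8, and SLC25A34, SLC25A41, SLC25A45 and SLC25A52 were too low to test, with at most 15 counts in a library. SLC25A31 is the germ-cell ADP/ATP carrier and SLC25A47 a carrier of liver. The other 41 members were tested.

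Per kilobase of transcript (MANE Select length), the order of levels over the 8 libraries ran from SLC25A5, at a mean of 414 CPM per kilobase, through SLC25A1 at 172, SLC25A39 at 168 and SLC25A3 at 124 to SLC25A11, the oxoglutarate-malate carrier, at 76.6. The aspartate-glutamate carrier SLC25A13 followed at 38.8 CPM per kilobase. The library ranges of SLC25A1 (146 to 191) and SLC25A39 (160 to 187) overlapped, so these neighbours are not separated. SLC25A3 has transcripts of very unequal length, and with the median transcript length its level was 545 CPM per kilobase, the first of the family. With that length SLC25A23 (94.5), SLC25A22 (74.8), SLC25A38 (64.6) and SLC25A29 (46.2) also stood above SLC25A13 (38.5), so the order depends on the length used. Paralogues of one substrate were far apart. SLC25A5 exceeded SLC25A4, the ADP/ATP carrier of heart and muscle, by a ratio per kilobase of 20.9 ± 1.22 in WT, 19.3 ± 0.61 in KO, 22.4 ± 1.14 at 5% O2 and 21.2 ± 1.71 with NAC (SD, n = 2). SLC25A39 exceeded its paralogue SLC25A40 by 43.9 ± 5.52 in WT and by 49.7 ± 0.858, 39 ± 2.35 and 34 ± 5.15 in KO, KO at 5% O2 and KO with NAC. SLC25A13 exceeded SLC25A12 by 9.42 ± 0.64, 9.41 ± 1.08, 12.1 ± 1.41 and 7.52 ± 1.39 in the same order. The mitoferrins, which bring iron to the matrix, were close to each other, with a ratio of SLC25A37 to SLC25A28 of 0.719 ± 0.0123 in WT, 0.877 ± 0.114 in KO, 1.14 ± 0.318 at 5% O2 and 0.953 ± 0.174 with NAC. Their order over the 8 libraries depends on the length used. It was 5.27 for SLC25A37 against 5.94 for SLC25A28 by MANE Select length, and 8.97 against 6.86 by median transcript length. SLC25A6, the third somatic ADP/ATP carrier, was at only 3.81 CPM per kilobase. It lies in the pseudoautosomal region of X and Y, and 95% of the 31-base words of its transcript occur elsewhere in the genome, mostly on Y. Reads that match several places were left out of the counts, so that its level and the ratio to its paralogues are uncertain. Another 9 tested members share at least 10% of their words with other loci, among them SLC25A33 (40.29%), SLC25A5 (37.27%), SLC25A23 (20.69%), SLC25A16 (20.24%) and SLC25A3 (18.64%).

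**Figure D1:**
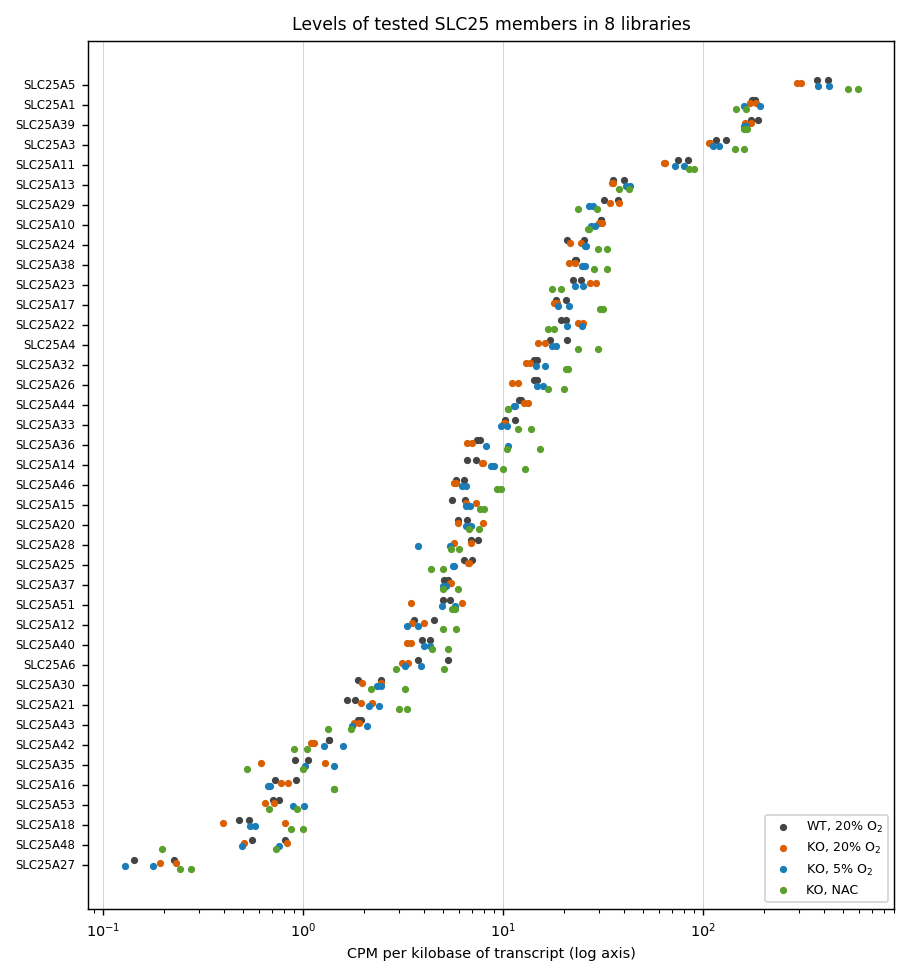
Level of all but 1 of the 41 tested members in each of the 8 libraries, in CPM per kilobase of transcript on a log axis; members are ordered by mean level and each point is 1 library, coloured by group. SLC25A5 is highest, at 294 to 591 CPM per kilobase, and its NAC libraries lie above the other 6.

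The first comparison asked whether loss of UBQLN1 was accompanied by a change in carrier transcripts. None of the 41 members was called in the main fit, whose estimate of spread also uses the NAC and 5% O2 libraries. By edgeR's quasi-likelihood test at a Benjamini-Hochberg adjusted p under 0.05, 0 members were higher and 0 lower in KO, where 1.34% of all 15916 tested genes were higher and 0.622% lower. By the criteria of the study's methods, an absolute log2 fold change over 1 with an unadjusted p under 0.05, 0 members passed beside 2.57% of all genes. DESeq2 called 0 higher and 2 lower, beside 3.42% of all genes higher and 1.98% lower by that tool. The 2 were SLC25A5 (adjusted p = 0.00465, DESeq2) and SLC25A11 (adjusted p = 0.0443). Without the first NAC library in the edgeR fit, their log2 fold changes were -0.39 and -0.31, the same as with it. Their calls did change with the libraries used to estimate the spread. With only the WT and KO libraries in that fit, 0 members were higher and 1 lower, beside 4.76% and 2.49% of all genes. The absence of calls thus depends on the fit. The log2 fold changes ran from -0.48 to 0.29, with a median of -0.06 beside -0.002 over all genes, and 28 of 41 lay below 0.

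The member nearest to a call in KO was the ADP/ATP carrier SLC25A5. It was at 483 and 547 CPM in the WT libraries and at 401 and 385 CPM in KO, a log2 fold change of -0.39 (SE 0.10, adjusted p = 0.0632, edgeR's quasi-likelihood test). Both KO libraries lay below both WT libraries. SLC25A4 was at 75 and 92.3 CPM in WT and at 71.7 and 65.8 CPM in KO (-0.28, SE 0.13, adjusted p = 0.273), and SLC25A3 at 770 and 692 CPM in WT and at 645 and 639 CPM in KO (-0.19, SE 0.09, adjusted p = 0.28). SLC25A6 was at 5.42 and 7.65 CPM in WT and 4.52 and 4.86 CPM in KO (-0.48, SE 0.27). None of these carriers passed the test in the main fit. Next to SLC25A5 in adjusted p came the malate carrier SLC25A11, which was at 126 and 142 CPM in WT and at 107 and 109 CPM in KO (-0.31, SE 0.09, adjusted p = 0.122). SLC25A26, which brings S-adenosylmethionine into the matrix, had a log2 fold change of -0.33 (SE 0.12, adjusted p = 0.17). On the other side stood SLC25A22, a glutamate carrier, at 0.29 (SE 0.11, adjusted p = 0.188), and the ATP-Mg/phosphate carrier SLC25A23 at 0.26 (SE 0.10, adjusted p = 0.195).

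Other carriers of mitochondrial metabolism had KO and WT values that overlapped or lay close. SLC25A1 was at 271 and 282 CPM in WT and 263 and 285 CPM in KO. SLC25A39 was at 273 and 296 CPM in WT and 255 and 273 CPM in KO, and its log2 fold change was -0.11 (SE 0.08). SLC25A40 was at 17.5 and 15.9 CPM in WT and 13.3 and 13.9 CPM in KO (-0.29, SE 0.14, adjusted p = 0.298). Both KO libraries of SLC25A40 lay below both WT libraries, and the test missed the threshold. SLC25A13 was at 126 and 111 CPM in WT and 109 and 111 CPM in KO, and SLC25A12 at 17.7 and 14.1 CPM in WT and 15.8 and 13.7 CPM in KO. The carnitine carrier SLC25A20, which serves fatty acid oxidation, was at 11.7 and 10.5 CPM in WT and 10.5 and 14.1 CPM in KO. SLC25A37 was at 23.5 and 24.6 CPM in WT and 25.2 and 25.6 CPM in KO, and SLC25A28 at 10.5 and 11.3 CPM in WT and 8.59 and 10.5 CPM in KO. Neither mitoferrin was called. In bulk libraries, fewer cells of a type and less RNA per cell cannot be told apart.

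NAC was compared with untreated KO cells next, and here many carriers were called. SLC25A36, a mitochondrial pyrimidine nucleotide carrier, rose 1.9-fold, more in the first NAC library than in the second, and SLC25A5 rose 1.87-fold. Of 41 members, 17 were higher (41.5%) and 5 lower (12.2%) by edgeR's quasi-likelihood test at an adjusted p under 0.05, beside 23.8% of all genes higher and 20.8% lower. By the criteria of the study's methods 0 members passed, beside 9.02% of all genes. The median log2 fold change was 0.28, beside 0.023 over all genes, and single members ran from -0.60 to 0.93. Without the first NAC library, 16 members were higher, of which 15 were among the 17, and 4 were lower, beside 21.2% and 19.7% of all genes. SLC25A12, SLC25A14 and SLC25A29 were the calls lost.

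The NAC differences moved with base composition. Over the 15501 genes with a known transcript, Spearman's rho between the log2 fold change and the GC content was -0.49, and over the 41 members it was -0.68; these are descriptions across genes of the same libraries. Members called higher had a GC content of 34.3% to 58.5% (median 42.5%), those called lower 51.5% to 65.1% (median 58.7%) and those not called 40.3% to 65.3% (median 53.9%). When each library's smooth trend along transcript length and GC content was taken out, an alternative that changes the calls, 9 members were higher and 0 lower, beside 15.1% and 10.5% of all genes. The 9 were all among the 17: SLC25A3, SLC25A4, SLC25A5, SLC25A11, SLC25A16, SLC25A17, SLC25A26, SLC25A36 and SLC25A38. With the trend taken out and the first NAC library left out, 8 were higher and 0 lower, beside 15.2% and 11.1% of all genes. Whether the trend with GC content arose in the cells or in the library preparation was not tested. The 7 members SLC25A3, SLC25A4, SLC25A5, SLC25A11, SLC25A16, SLC25A17 and SLC25A38, were called higher under each of 18 alternative fits, although none reached a log2 fold change of 1.

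**Figure D2:**
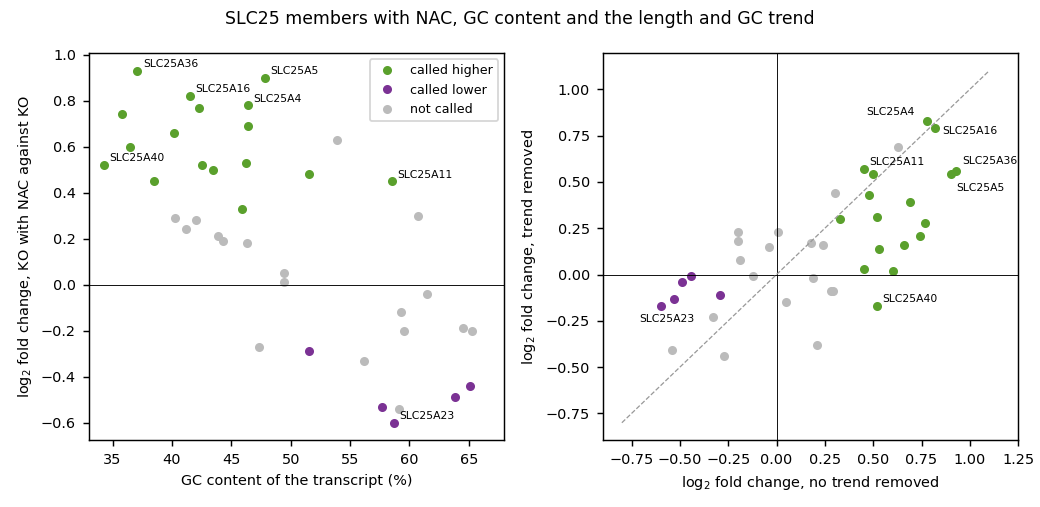
Left, log2 fold change of all but 1 of the 41 tested members in KO with NAC against untreated KO by GC content of the transcript in percent; right, the same log2 fold change before (x) and after (y) removal of a trend on length and GC content, with a dashed line of equal values. Called increases lie mostly at low GC content, all 5 called decreases move close to 0 after the removal, and SLC25A4, SLC25A16 and SLC25A11 stay near or above the line.

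The carriers of ADP, ATP and phosphate, which feed ATP synthase and export its product, gave 3 higher and 0 lower of 4 tested with NAC, also without the first NAC library and with the trend removed. SLC25A5, on chromosome X from 119468422 to 119471396 (hg38), was at 773 and 694 CPM with NAC and 401 and 385 CPM without, a log2 fold change of 0.90 (SE 0.10, adjusted p = 3.23e-05, edgeR's quasi-likelihood test). Both NAC libraries also lay above the WT libraries (483 and 547 CPM). With the length and GC trend removed its log2 fold change was 0.54 (adjusted p = 0.000659). SLC25A4, on chromosome 4 from 185143266 to 185150382, was at 131 and 105 CPM with NAC and 71.7 and 65.8 CPM without (0.78, SE 0.13, adjusted p = 0.000418), and at 0.83 with the trend removed. SLC25A3 was at 864 and 950 CPM with NAC and 645 and 639 CPM without (0.50, SE 0.09, adjusted p = 0.000579), and at 0.54 with the trend removed. All 3 of these genes were called higher. SLC25A6, whose counting is uncertain, was at 7.31 and 4.21 CPM with NAC and 4.52 and 4.86 CPM without, and was not called.

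Cofactor and nucleotide carriers held the most increases, 6 higher and 0 lower of 9 tested, with the same counts without the first NAC library and 4 and 0 with the trend removed. SLC25A36, on chromosome 3 from 140941830 to 140980995, was at 87 and 59 CPM with NAC and 39.6 and 37.3 CPM without (0.93, SE 0.17, adjusted p = 0.000832). The first NAC library was much the higher of its pair, and without it the log2 fold change was 0.62 (adjusted p = 0.00246). With the trend also removed it was 0.26 (adjusted p = 0.116), which ended the call. SLC25A16, linked to coenzyme A in mitochondria, was at 9.39 and 9.35 CPM with NAC and 5.5 and 5.1 CPM without (0.82, SE 0.19, adjusted p = 0.00408). SLC25A17, a peroxisomal member that carries coenzyme A, FAD and related nucleotides, was at 70.1 and 67.6 CPM with NAC and 39.8 and 41.1 CPM without (0.77, SE 0.10, adjusted p = 0.000111). Its log2 fold change was 0.28 with the trend removed (adjusted p = 0.0325). Both NAC libraries of SLC25A16 and of SLC25A17 were nearly equal and stood clear of the other 6 libraries.

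SLC25A32, which carries folate and FAD, was at 59.6 and 61.1 CPM with NAC and 37.2 and 39.3 CPM without (0.66, SE 0.10, adjusted p = 0.000215). SLC25A26 was at 41.1 and 34 CPM with NAC and 22.7 and 23.9 CPM without (0.69, SE 0.12, adjusted p = 0.000595). The second pyrimidine nucleotide carrier, SLC25A33, rose less, by a log2 fold change of 0.33 (SE 0.11, adjusted p = 0.0287). The coenzyme A carrier SLC25A42 (-0.20, SE 0.23) and the NAD carrier SLC25A51 (0.21, SE 0.25) were not called. With the trend removed, SLC25A32 was at 0.16 (adjusted p = 0.187) and was no longer called.

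Carboxylate carriers and their close relatives gave 3 higher and 0 lower of 7 tested, 2 and 0 without the first NAC library and 1 and 0 with the trend removed. SLC25A11, which trades oxoglutarate for malate in the malate-aspartate shuttle, was at 152 and 144 CPM with NAC and 107 and 109 CPM without (0.45, SE 0.09, adjusted p = 0.00214). It had the highest GC content of the 17 members that rose, and its log2 fold change was 0.57 with the trend removed. The oxoadipate carrier SLC25A21 (0.60, SE 0.17, adjusted p = 0.0106) and SLC25A14 (0.53, SE 0.15, adjusted p = 0.0137) rose as well. Both were near 0 with the trend removed, at 0.02 and 0.14. The citrate carrier SLC25A1 was at 226 and 254 CPM with NAC and 263 and 285 CPM without (-0.19, SE 0.10, adjusted p = 0.157). The dicarboxylate carrier SLC25A10 was at 51.7 and 52.1 CPM with NAC and 58.5 and 60.6 CPM without (-0.20, SE 0.09, adjusted p = 0.0892). Neither of these carriers, which export citrate and exchange malate for phosphate, passed the test.

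Amino acid carriers split, with 2 higher and 3 lower of 8 tested, 2 and 2 without the first NAC library and 1 and 0 with the trend removed. SLC25A38, the glycine carrier needed for haem synthesis, rose by a log2 fold change of 0.48 (SE 0.10, adjusted p = 0.00213). SLC25A12 was at 22.7 and 19.7 CPM with NAC and 15.8 and 13.7 CPM without (0.52, SE 0.16, adjusted p = 0.0165). Its more abundant paralogue SLC25A13 was at 119 and 133 CPM with NAC and 109 and 111 CPM without (0.19, SE 0.10, adjusted p = 0.128). The increases counted without the first NAC library were SLC25A38 and SLC25A13, not SLC25A12. In that fit the log2 fold changes of SLC25A12 and SLC25A13 were 0.41 and 0.27, so these paralogues are not separated by their calls. The glutamate carrier SLC25A22 fell by 0.49 on the log2 scale (SE 0.11, adjusted p = 0.00256), from 62.5 and 66.3 CPM to 44.2 and 47.4 CPM. SLC25A29, a carrier of basic amino acids, fell by 0.44 (SE 0.12, adjusted p = 0.0101), and SLC25A44, a carrier of branched-chain amino acids, fell by 0.29 (SE 0.09, adjusted p = 0.0236). All 3 decreases lost their call with the trend removed, at -0.04, -0.01 and -0.11.

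The calcium-dependent ATP-Mg/phosphate carriers, which set the adenine nucleotide content of the matrix, moved in opposite directions, 1 higher and 2 lower of 3 tested, with the same counts without the first NAC library. SLC25A23 had the largest called decrease of the family when all libraries were used without a trend correction: it was at 60.9 and 67.6 CPM with NAC and 94 and 100 CPM without, and fell by 0.60 on the log2 scale (SE 0.10, adjusted p = 0.000456). SLC25A25 fell by 0.53 (SE 0.12, adjusted p = 0.00425), from 23.2 and 22.9 CPM to 17.1 and 15 CPM. SLC25A24 rose by 0.45 (SE 0.11, adjusted p = 0.00664), from 91.2 and 103 CPM to 139 and 126 CPM. The 3 values were -0.17, -0.13 and 0.03 with the trend removed, and none was then called.

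Glutathione carriers gave 1 higher of 2, with or without the first NAC library, a group of interest since NAC supplies the cysteine of glutathione. SLC25A40 was at 17.8 and 21.4 CPM with NAC and 13.3 and 13.9 CPM without (0.52, SE 0.14, adjusted p = 0.0089), and its value turned to -0.17 with the trend removed. SLC25A39, which is far more abundant, was at 260 and 253 CPM with NAC and 255 and 273 CPM without (-0.04, SE 0.08, adjusted p = 0.729). Of the mitoferrins, 0 of 2 were called: SLC25A37 was at 27.6 and 23.3 CPM with NAC and 25.2 and 25.6 CPM without. SLC25A28 was at 8.38 and 9.18 CPM with NAC and 8.59 and 10.5 CPM without. The carnitine carrier SLC25A20 was at 13.4 and 12 CPM with NAC and 10.5 and 14.1 CPM without, and together with SLC25A48 gave 0 of 2 calls. SLC25A46, an outer membrane protein with no transport substrate that acts in mitochondrial shape, was at 44 and 46.4 CPM with NAC and 27.5 and 26.8 CPM without (0.74, SE 0.10, adjusted p = 0.000156), and at 0.21 with the trend removed (adjusted p = 0.146). The other 3 tested members without a settled substrate were not called.

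**Figure D3:**
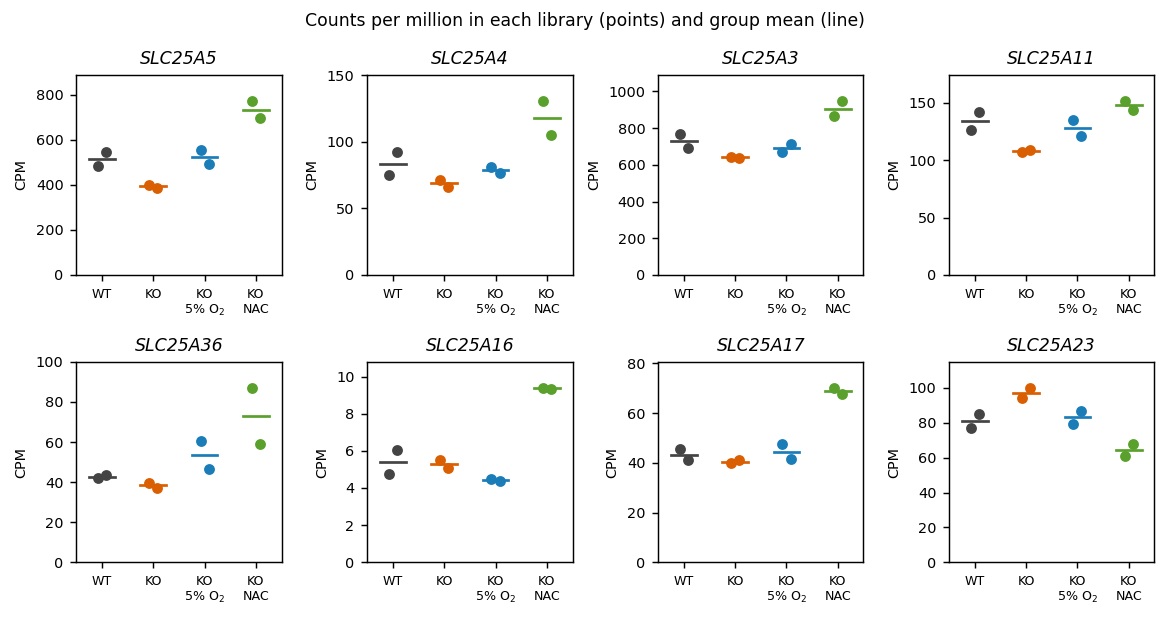
Level in CPM of 8 members in each library; each point is 1 library, the line is the mean of the group's 2 libraries, and every axis starts at 0. The NAC libraries lie above the untreated KO libraries in 7 panels and below them for SLC25A23, and the 2 NAC libraries of SLC25A36 are far apart.

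Low oxygen was the second treatment of KO cells, compared at 5% against 20% O2. SLC25A5 alone was called, at 556 and 492 CPM at 5% O2 and 401 and 385 CPM at 20% O2, a log2 fold change of 0.42 (SE 0.10, adjusted p = 0.0266, edgeR's quasi-likelihood test). Both libraries at 5% O2 lay above both at 20% O2, and their range overlapped that of WT at 20% O2 (483 and 547 CPM). Of 41 members 1 was thus higher (2.44%) and 0 lower, beside 3.68% of all genes higher and 4.13% lower. DESeq2 called 3 higher and 1 lower, beside 6.79% and 6.68% of all genes. By the criteria of the study's methods 0 members passed beside 2.02% of all genes. With the length and GC trend removed, the log2 fold change of SLC25A5 was 0.26 (adjusted p = 0.0988), and the call was also lost without the first KO library at 5% O2 or without either KO library at 20% O2.

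All 41 tested members at 5% O2 ran from -0.46 to 0.49 in log2 fold change with a median of 0.11, beside 0 over all genes. The largest values among uncalled members with an unadjusted p under 0.05 were SLC25A53 (0.49, SE 0.22), SLC25A36 (0.48, SE 0.17, adjusted p = 0.0981) and SLC25A26 (0.41, SE 0.12, adjusted p = 0.0542). SLC25A36 was at 60.5 and 46.6 CPM at 5% O2 and 39.6 and 37.3 CPM at 20% O2. On the lower side, SLC25A28 was at 5.74 and 8.29 CPM at 5% O2 and 8.59 and 10.5 CPM at 20% O2 (-0.45, SE 0.20, adjusted p = 0.189), while the other mitoferrin SLC25A37 was at 24 and 23.3 CPM at 5% O2 (-0.10, SE 0.12). SLC25A29 had a log2 fold change of -0.39 (SE 0.12, adjusted p = 0.0691). SLC25A4 was at 80.9 and 76.9 CPM at 5% O2 (0.20, SE 0.13) and SLC25A3 at 671 and 716 CPM (0.11, SE 0.09), and neither was called. SLC25A11 was at 135 and 121 CPM (0.25, SE 0.09, adjusted p = 0.131) and SLC25A13 at 130 and 135 CPM (0.26, SE 0.10, adjusted p = 0.113). Both lay above the KO libraries at 20% O2 in each library. SLC25A1, at 247 and 296 CPM, and SLC25A39, at 253 and 259 CPM, had log2 fold changes of -0.01 (SE 0.10) and -0.04 (SE 0.08). SLC25A40 was at 17.4 and 16.4 CPM (0.31, SE 0.14), SLC25A12 at 14.7 and 13 CPM (-0.10, SE 0.16), SLC25A20 at 12.2 and 11.5 CPM (-0.05, SE 0.17) and SLC25A6 at 5.62 and 4.67 CPM (0.13, SE 0.27).

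**Figure D4:**
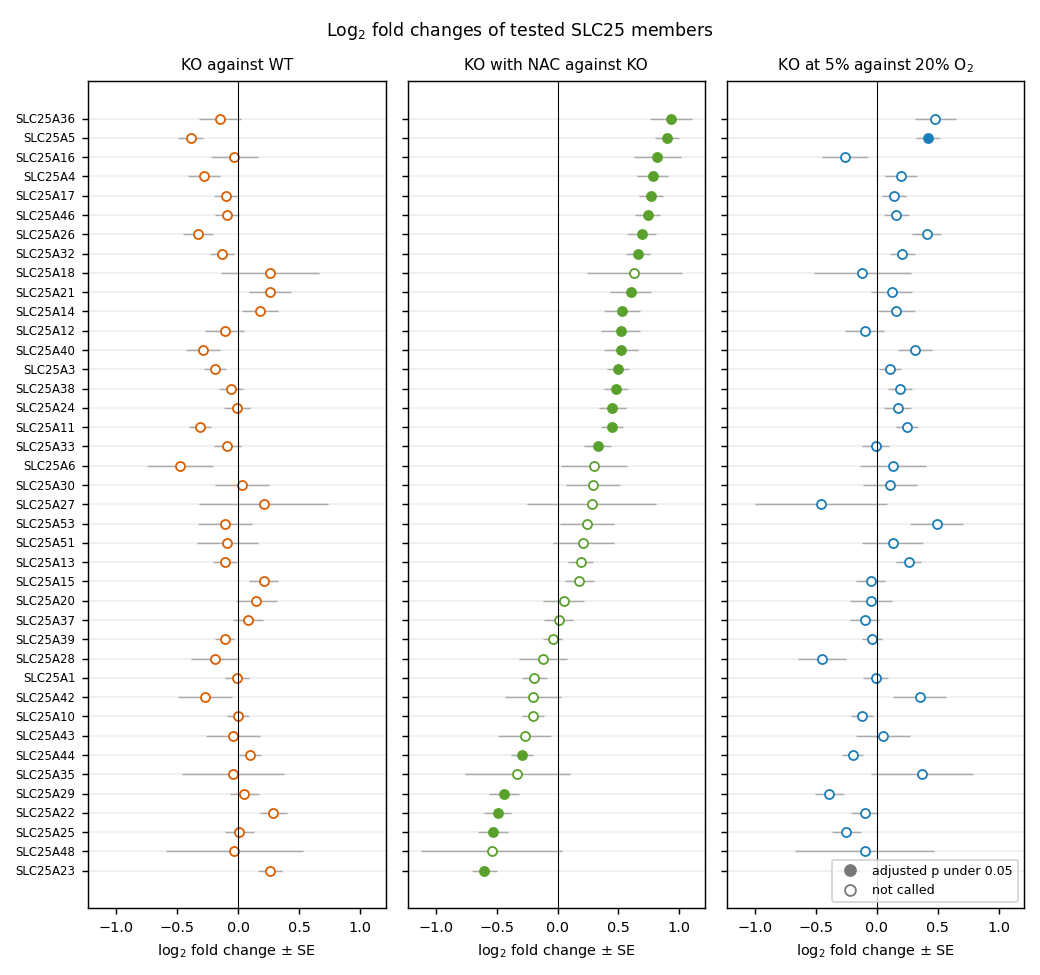
Log2 fold change (point) and its standard error (bar) of all but 1 of the 41 tested members in 3 comparisons, ordered by the value with NAC; filled points have a Benjamini-Hochberg adjusted p under 0.05 over all genes. No member is filled in KO against WT, 22 are filled with NAC and 1, SLC25A5, at 5% O2; the KO libraries at 20% O2 enter all 3 panels.

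The KO libraries at 20% O2 serve as control or treated group in all 3 comparisons above, so their values are not independent of each other. Given side by side, SLC25A5 had a log2 fold change of -0.39 by genotype, 0.90 with NAC and 0.42 by oxygen, SLC25A4 had -0.28, 0.78 and 0.20, and SLC25A11 had -0.31, 0.45 and 0.25. A direct comparison of NAC with 5% O2, which leaves those libraries out of the contrast, gave 11 members higher with NAC (26.8%) and 2 lower (4.88%), beside 15.5% and 13.6% of all genes. By the criteria of the study's methods 1 member passed, SLC25A16, beside 4.42% of all genes. The median log2 fold change was 0.21, beside 0.038 over all genes. The treatments may have differed in duration, and the part of time in culture in these differences was not tested.

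SLC25A16 had the largest difference between the treatments, at 9.39 and 9.35 CPM with NAC and 4.49 and 4.36 CPM at 5% O2, a 2.12-fold difference (log2 fold change 1.08, SE 0.19, adjusted p = 0.00208, edgeR's quasi-likelihood test). The other 10 that were higher with NAC were SLC25A17 (0.63), SLC25A12 (0.62), SLC25A46 (0.58), SLC25A4 (0.58), SLC25A5 (0.49), SLC25A21 (0.48), SLC25A32 (0.45), SLC25A3 (0.39), SLC25A33 (0.34) and SLC25A38 (0.29). Among these, SLC25A21 (adjusted p = 0.0465) and SLC25A38 (adjusted p = 0.049) lay just under the threshold in edgeR's test, and both lost their call with DESeq2. SLC25A22 (-0.39) and SLC25A23 (-0.37) were lower. Of the 4 tested carriers of ADP, ATP and phosphate 3 were higher with NAC than at 5% O2, with SLC25A5 at 773 and 694 CPM with NAC against 556 and 492 CPM at 5% O2. With the trend removed 7 members were higher and 0 lower, 6 of them from the 11, beside 7.85% and 7.78% of all genes, and without the first NAC library 9 were higher and 0 lower, beside 13.4% and 12.8%. Without the second KO library at 5% O2, fewer members were called, and so were fewer of all tested genes. Both comparisons with NAC share the NAC libraries. Over all 4 comparisons, 19 of the 41 tested members were called in none, among them SLC25A1, SLC25A10, SLC25A13, SLC25A20, SLC25A28, SLC25A37 and SLC25A39.

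Genes that work with the carriers were counted from lists. Of family proteins whose symbols lie outside the naming rule, MTCH2, an insertase of the outer membrane, rose with NAC (log2 fold change 0.73, adjusted p = 7.48e-05) and UCP2, an uncoupling protein homologue, fell by 0.53 (adjusted p = 0.00252), out of 4 tested by edgeR's quasi-likelihood test. Of 17 other inner membrane transporters and outer membrane channels, 10 rose with NAC and 3 fell, beside 23.8% and 20.8% of all genes. The counts were 11 and 2 without the first NAC library and 5 and 1 with the trend removed. They included the pyruvate carrier subunits MPC1 (0.76) and MPC2 (0.58), the calcium uniporter regulator MICU2 (0.94) and the channel VDAC3 (0.77), while LETM1, a cation exchanger, fell by 0.55. Of 13 genes of the TIM22 route by which carriers are imported, 8 rose and 1 fell, also without the first NAC library, and 4 rose and 0 fell with the trend removed. The chaperone subunit TIMM9 was at 0.94 and the receptors TOMM20 and TOMM22 at 0.83 and 0.80, and the pore TOMM40 fell by 0.33. MDH1 (0.99) and GOT1 (0.52), the cytosolic malate-aspartate enzymes, rose and the mitochondrial MDH2 (0.14) and GOT2 (0.10) were not called. In KO against WT, 0 genes of these 4 lists were called, and at 5% O2 MTCH2 and VDAC2 were higher and LETM1 lower.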

How the data were processed

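The authors trimmed reads of TruSeq RNA libraries, used hisat2 for alignment to hg38, and ran featureCounts with default settings to obtain gene counts, which ignore strand and leave out reads matching several places or overlapping genes. The annotation used for counting is not given in the sources used here. The deposited values are raw counts without normalization, for 28278 genes in 8 libraries, and groups were taken from the labels. Antisense genes of SLC25A5, SLC25A21, SLC25A25, SLC25A30, SLC25A34 and SLC25A48 are in the table. Where their exons overlap those of the carrier, reads of either gene were left out, so the counts of these carriers may be too low.

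In edgeR 4.0.16 (R 4.3.3), filterByExpr with a minimum count of 10 left 15916 genes, to which TMM scaling and the quasi-likelihood test were applied in 1 fit of 4 groups with 4 residual degrees of freedom and no block. The biological coefficient of variation was 13.7%. P-values were adjusted by Benjamini-Hochberg over all tested genes. Standard errors were obtained by dividing a log2 fold change's size by the square root of its F. Lengths and GC content are those of GENCODE transcripts, known for 97.4% of tested genes, in place of the RefSeq transcripts first planned. The length and GC trend was fitted with mgcv 1.9.3 and DESeq2 was version 1.42.0. The scripts were tested on simulated data. In each comparison with at most 15 called members all were named, and beyond that the 10 largest and 10 smallest changes, with values per library for the 8 largest and for a set of main carriers. Removing the trend together with the first NAC library, the kind of transcript taken for length, and the counts by role and list under other settings, were chosen after seeing the data. The values of 1 tested member and of 1 listed gene are not reported here, although both are counted. The members and lists were chosen with earlier results of these data known.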

Additional observations from a re-analysis of the deposited data

How the results depend on the processing

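With 2 libraries a group and small fold changes, counts of called members depend on the settings. So does the share of all tested genes called in the same direction. That share is given as a percentage in parentheses for fits with 2 libraries in every group. Replicate numbers did not pair libraries, with correlations of deviations from -0.02 to 0.08, so the replicate block appears only here. In KO against WT, members lower moved from 0 (0.622%) to 2 with DESeq2 (1.98%), 1 without a filter (2.22%) and 1 with only the libraries compared (2.49%). The count also changed when single libraries were left out.

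With NAC against untreated KO, the 17 higher and 5 lower (23.8% and 20.8%) became 9 and 0 with the length and GC trend removed (15.1% and 10.5%). They became 10 and 0 with a replicate block and the trend removed (14.2% and 10%). By a log2 fold change over 1 they were 0 and 0 (9.02% in either direction). Leaving out libraries gave 12 to 18 higher and 3 to 6 lower, the 3 without the second KO library at 20% O2. The replicate block alone called 17 and 5 (23.9% and 21.2%). The median of 0.28 moved to 0.23 without a filter, 0.15 with the trend removed (0.15 with the block as well), 0.11 without the first NAC library too, and 0.19 to 0.33 over the leave-one-out fits. Among called members, signs turned for SLC25A40 with the trend removed (-0.17, also -0.17 with the replicate block) and, without the first NAC library too, for SLC25A40 (-0.04), SLC25A14 (-0.02), SLC25A21 (-0.05), SLC25A24 (-0.04) and SLC25A29 (0.08); the cause was not tested.

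At 5% against 20% O2, the 1 member higher (3.68%) became 2 with upper quartile scaling (4.22%), 3 with DESeq2 (6.79%) and 3 without a filter (4.91%). It became 2 with at least 10 counts in every library (4.59%), 2 with a replicate block (4.25%) and 5 with only the libraries compared (9.53%). With the trend removed it became 0 (1.72%, or 1.26% with the block), and by a log2 fold change over 1 it was 0 (2.02% in either direction). Leaving out libraries gave 0 to 4 higher. Members lower moved from 0 to 1 with DESeq2 (6.68%), no filter (5.59%), the replicate block (4.66%) and only the libraries compared (10%). The count also changed in some leave-one-out fits. The median of 0.11 moved to 0.05 without a filter, to 0 in the 3 fits with the trend removed and to 0.02 to 0.14 over the leave-one-out fits.

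With NAC against 5% O2, the 11 higher and 2 lower became 7 and 0 with the trend removed (7.85% and 7.78%). They became 6 and 0 with the replicate block too (6.96% and 7.07%). RLE scaling and upper quartile scaling each gave 8 and 2 (14% and 14.7%). With only the libraries compared they were 8 and 2 (9.54% and 10.5%), and with DESeq2 10 and 2 (15.1% and 15.7%). By a log2 fold change over 1 they were 1 and 0 (4.42% in either direction). Leaving out libraries gave 4 to 14 higher and 0 to 2 lower. The median of 0.21 moved to 0.13 with the trend removed, 0.13 with the block too, 0.03 without the first NAC library too, and 0.13 to 0.22 over the leave-one-out fits. Where leaving out a library left a group with 1, that library was assumed to vary like the others.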
